A study of Mus musculus with 32 samples.

Results

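The genes described here are 43 mouse factors that build ribosomes in the nucleolus, chosen by gene symbol and followed through RNA sequencing of 14 hindbrain tumors. All 43 symbols matched 1 Ensembl identifier each among the 37310 genes of the count table, and all 43 passed the filter on low counts that left 21024 genes for testing. The tumors came from 2 Tet-OFF mouse models on an FVBN background. GMYC mice (6 tumors) were doubly hemizygous for Glt1-tTA and TRE-MYC, so that the transactivator tTA, made in cells with an active promoter of the glutamate transporter gene Glt1, turned on a MYC transgene. GTML mice (8 tumors) carried Glt1-tTA and a MYCN transgene controlled in the same way. Both groups therefore shared the promoter and the transactivator and differed in the oncogene. According to the paper, GTML data had at least in part been generated for an earlier study. The labels do not say when each tumor was sequenced, so the model and the time of sequencing cannot be told apart. The comparison asked whether MYC and MYCN tumors driven from the same promoter differ in the expression of these factors. Nothing in the labels ties a tumor to a mouse, so p-values measure the spread between these biopsies.

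Ribosome production begins in the nucleolus, where RNA polymerase I transcribes the precursor of the large ribosomal RNAs. The precursor is modified by small nucleolar ribonucleoproteins (snoRNPs): the box C/D class guides 2′-O-methylation and the box H/ACA class guides pseudouridylation. It is then folded and cut within the small subunit processome and the assembling large subunit, and the particles mature further on the way to the cytoplasm. MYC family proteins bind the DNA motif CACGTG, the E-box, and many genes of ribosome production are known MYC targets. Both transgenes of this study encode proteins of that family.

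The GMYC libraries held 6218378 to 7279811 counts and the GTML libraries 4602294 to 6317404 counts. The members had between 130 counts (Rrs1 in GMYC tumor 6) and 5433 counts (Ncl) in a tumor. Levels are given as CPM (the counts of a gene relative to the total of its library) after TMM scaling, a correction for differences in library composition. Small nucleolar RNAs took 0.366% or more of the counts in 6 tumors (GMYC 1 to 4, GTML 1 and 2). They took 0.272% or less in 8 (GMYC 5 and 6, GTML 3 to 8). No label names this split. In the sample list, however, the 6 tumors with more stand together at the top and the 8 with less come next. Whether these blocks differ in handling or in the tumors themselves was not tested. Y-linked genes, which mark male tissue, had a mean log2 CPM of 5.57 or more in all 6 GMYC tumors and 4 GTML tumors and of −0.28 or less in the other 4 GTML tumors, GTML 2 among them. Counts of the mouse genes Myc and Mycn went with the labels. The paper describes the MYC transgene as human, and reads were aligned to the mouse genome. How much of the Myc counts came from the transgene was not tested, so they do not measure its dose. Myc was at 33.4 CPM in the lowest GMYC tumor, with a median of 144 and a highest value of 166 CPM, and at 2.60 to 8.68 CPM in GTML tumors. Mycn was at 119 to 191 CPM in GTML tumors (median 160) and at 7.65 to 34.4 CPM in GMYC tumors. GMYC tumor 6 held both extremes of its group. It had 33.4 CPM of Myc, where the other 5 GMYC tumors had at least 134 CPM, and 34.4 CPM of Mycn, where they had at most 28.9 CPM. For the members, GMYC tumor 6 and GTML tumor 2 stood apart from their groups, as described further on, and counts are given with and without these tumors. The paper describes 1 GTML tumor as an outlier with features of the SHH subgroup of medulloblastoma; the labels do not say which tumor that is, and all 8 were kept.

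Few of the factors were called as different between the models. Of the 43 members, 4 passed an adjusted p of 0.05 (edgeR quasi-likelihood test, adjusted over all genes tested), and all 4 were higher in GMYC tumors: Bop1, Fbl, Rrp9 and Ddx21. That is 9.30% of the members, beside 9.71% of all genes tested that were called higher in GMYC and 21.2% that were called in either direction. The share of members called was thus near that of genes at large called higher, and below that of genes called in either direction. No member was called lower by edgeR, DESeq2 or limma-voom, where edgeR called 2418 of all 21024 genes lower. At an unadjusted p under 0.05 the edgeR test gave 0 members lower and 8 higher. Over all 21024 genes, 7938 passed that threshold in either direction, a larger share than among the members. That count was not split by direction, so it gives no background for the split of the members. The log2 fold change (GMYC over GTML) was above 0 for 36 members and below 0 for 7, from −0.22 for Nob1 to 0.71 for Bop1, with a median of 0.16 beside −0.04 over all genes tested. With TMM factors taken from genes of low count density, the median of all genes shifted by 0.11 and that of the members was 0.26, with 6 members called. On that scale 2960 genes were called higher and 1897 lower, beside 2041 and 2418 with the usual factors.

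No member separated the groups. For 0 of 43 members did every tumor of one model lie above every tumor of the other, beside 4.62% of all genes tested. Where small nucleolar RNAs took more of the counts (4 GMYC, 2 GTML tumors), the median log2 fold change of the members was −0.01 with 0 members called, beside 0.0106% of genes tested there that were called higher in GMYC, so the count says nothing about the members. Where they took less (2 GMYC, 6 GTML tumors), it was 0.08 with 2 members called, Bop1 and Fbl, beside 6.69% of genes. Bop1 was at 0.29 (adjusted p = 0.60) on the higher side and at 1.06 (adjusted p = 0.017) on the lower side. With the Y-linked level as a covariate 1 member was called, Bop1, beside 2.69% of genes called higher. With the small nucleolar RNA share as a term it was also 1, again Bop1, beside 6.77% of genes. The part of either in the differences of the members was not tested beyond these fits.

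**Figure D1:**
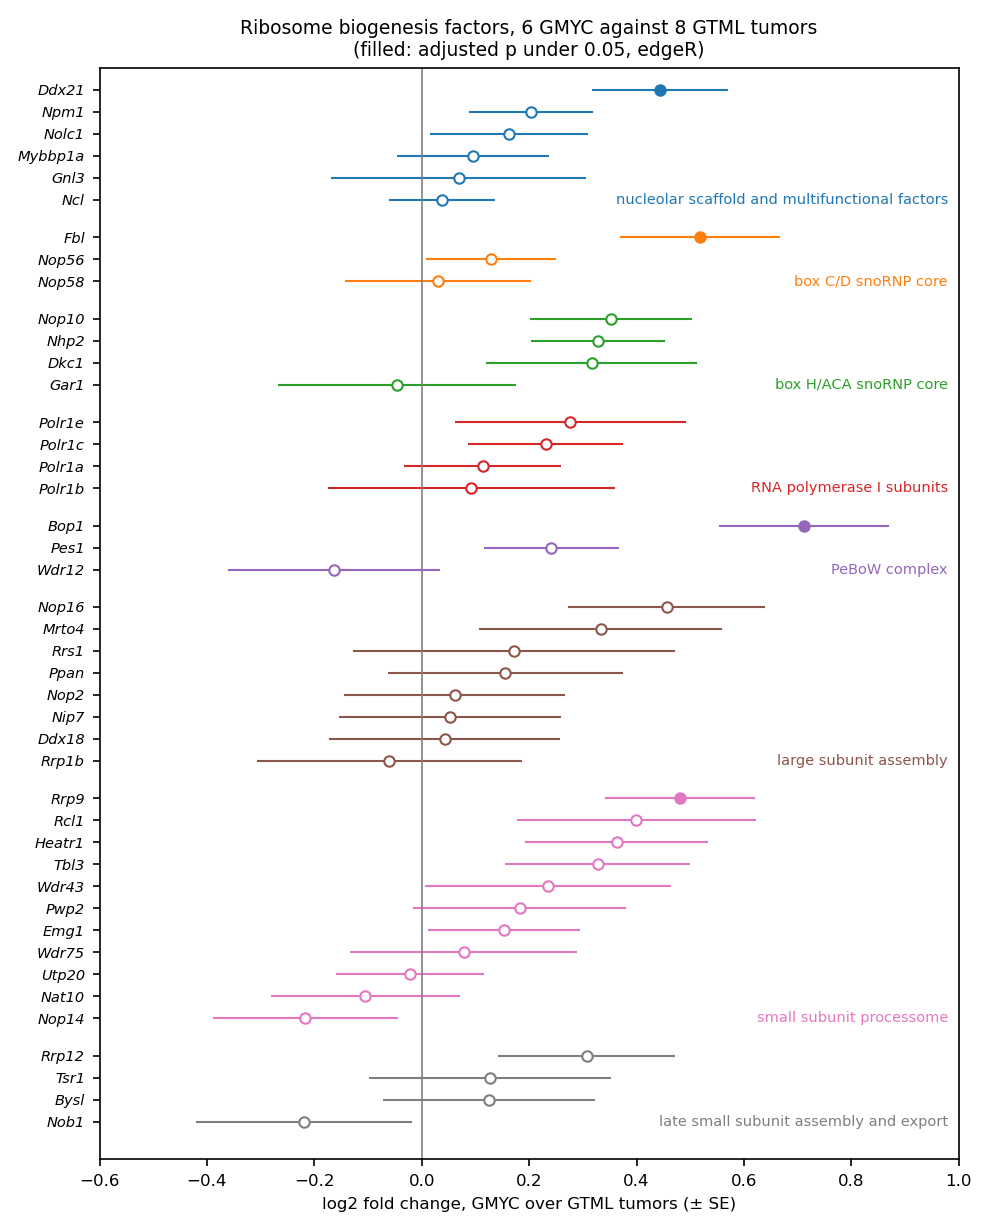
Log2 fold change of each member (x axis, GMYC over GTML, bars ± SE from edgeR) grouped by role, with filled points for an adjusted p under 0.05. Bop1, Fbl, Rrp9 and Ddx21 are filled, and most other members lie between 0 and 0.46 with standard errors that reach from 0.10 to 0.30.

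The nucleolar scaffold and multifunctional proteins included 1 called member. Ddx21, an RNA helicase that acts in both RNA polymerase I transcription and ribosomal RNA processing, was at 236 CPM in the lowest GMYC tumor, at a median of 393 and at 430 CPM in the highest. In GTML tumors the lowest, median and highest were 228, 260 and 331 CPM. The log2 fold change was 0.44 (SE 0.13, adjusted p = 0.023). The lowest GMYC value was that of tumor 6 and the highest GTML value that of tumor 2. Without these tumors the lowest GMYC value was 318 CPM and the highest GTML value 293 CPM. Both tumors were singled out by their member values, and leaving them out widens the difference by construction, so this gap is a description only.

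Ncl, which encodes nucleolin, an abundant RNA-binding protein of the nucleolus, was almost level. It ranged from 529 through a median of 655 to 765 CPM in GMYC tumors and from 554 through 651 to 746 CPM in GTML tumors, and its log2 fold change of 0.04 (SE 0.10, adjusted p = 0.80) came with the smallest standard error of all members. Npm1, which encodes the histone chaperone nucleophosmin, had lowest, median and highest values of 256, 311 and 339 CPM in GMYC tumors and of 204, 248 and 346 CPM in GTML tumors, with a log2 fold change of 0.20 (SE 0.11, adjusted p = 0.20). The groups overlapped for both genes. Ncl reached 0.533 and Npm1 0.826 counts per exon base, and differences of densely counted genes may be understated, as given under the processing. Ddx21, which was called, reached 0.543. Gnl3 (nucleostemin, a nucleolar GTP-binding protein) had the largest p of this role: it was at 46.4 CPM in GMYC tumor 6 and between 134 and 198 CPM in the other 5 (median of all 6, 190 CPM), beside 116 to 179 CPM in GTML tumors (median 153 CPM; log2 fold change 0.07, SE 0.24, adjusted p = 0.85). Nolc1, a chaperone of snoRNPs, and Mybbp1a, a nucleolar MYB-binding protein, had log2 fold changes of 0.16 and 0.10 and were not called.

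**Figure D2:**
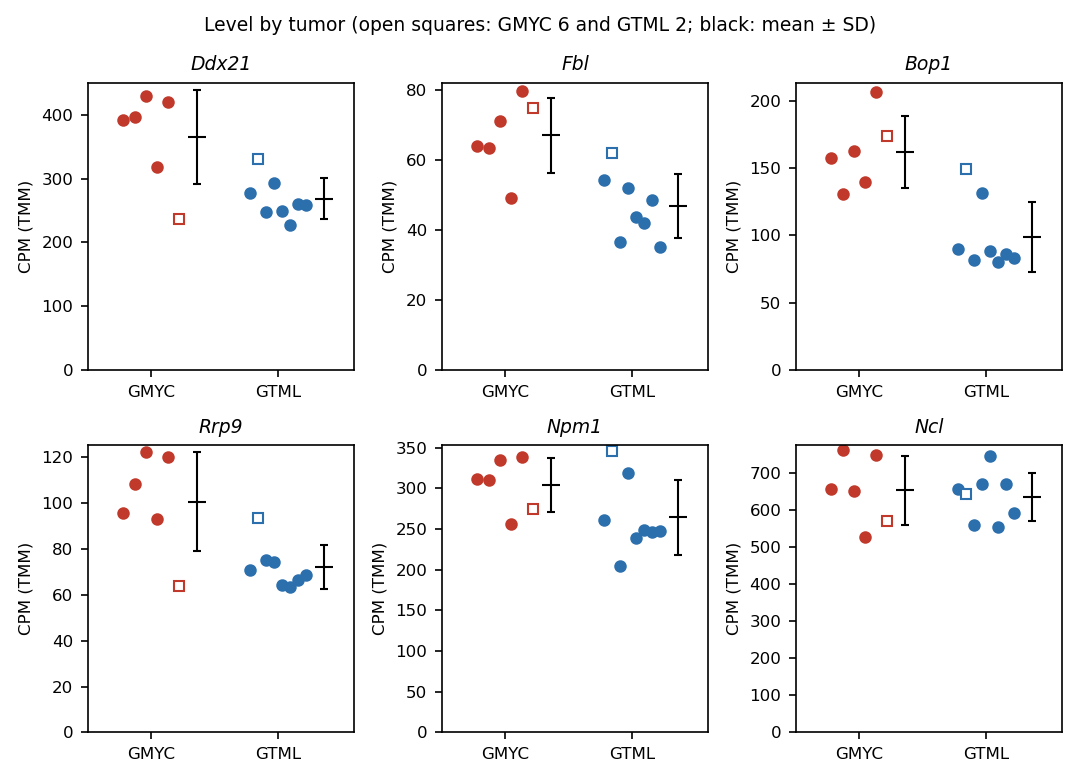
CPM (y axis) of the 4 called members and of Npm1 and Ncl in 6 GMYC tumors (red) and 8 GTML tumors (blue), each point a tumor, with the mean ± SD in black and open squares for GMYC tumor 6 and GTML tumor 2. The groups overlap for every gene shown; GMYC tumor 6 is the lowest GMYC point for Ddx21 and Rrp9 and among the higher ones for Fbl and Bop1.

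Among the 3 box C/D snoRNP core members, the methyltransferase gene Fbl was called and Nop56 and Nop58 were not. Snu13, whose protein binds box C/D RNAs directly, is not a member and is described with the other pathway genes. It was called higher in GMYC as well (log2 fold change 0.86, edgeR adjusted p = 0.012). Fbl (fibrillarin) was at 49.3 CPM in the lowest GMYC tumor, with a median of 67.6 and a highest value of 79.8 CPM, and at 35.1, 46.2 and 62.0 CPM in GTML tumors. The log2 fold change was 0.52 (SE 0.15, adjusted p = 0.024). GMYC tumor 6 was not low for Fbl, and lay 0.22 above the median of the other GMYC tumors on the log2 scale. The higher and lower sides of the small nucleolar RNA split gave unlike values for Fbl, 0.08 (adjusted p = 0.89) and 0.85 (adjusted p = 0.026), and the difference between them was not tested. Nop58 ranged from 119 to 269 CPM (median 238) in GMYC and from 147 to 275 CPM (median 208) in GTML tumors, with a log2 fold change of 0.03 (SE 0.17, adjusted p = 0.91). Nop56 was at 0.13 (SE 0.12, adjusted p = 0.45). Whether Fbl differed from Nop56 and Nop58 in its change was not tested.

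None of the 4 box H/ACA core genes was called, although their median log2 fold change of 0.32 was the highest of the 8 roles. Nhp2, an RNA-binding core protein, was at 68.5, 74.5 and 89.8 CPM in the lowest, median and highest GMYC tumor and at 48.8, 58.1 and 79.2 CPM in GTML tumors (log2 fold change 0.33, SE 0.13, adjusted p = 0.071). Nop10 and Dkc1 (dyskerin, the pseudouridine synthase) had similar values of 0.35 (SE 0.15, adjusted p = 0.10) and 0.32 (SE 0.20, adjusted p = 0.25). Gar1 had a value of −0.05 (SE 0.22, adjusted p = 0.90), with 24.5, 38.5 and 51.7 CPM in GMYC and 24.7, 37.7 and 67.2 CPM in GTML tumors. In GTML tumor 2 all 4 genes were at the top of the GTML group, and Dkc1 there, at 296 CPM, lay above every GMYC tumor, whose highest value was 251 CPM.

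The 4 RNA polymerase I subunits lay between 0.09 and 0.28 and none was called. Polr1c, a subunit shared with RNA polymerase III, had the smallest p of the role: its lowest, median and highest values were 93.8, 104 and 119 CPM in GMYC tumors and 64.2, 86.6 and 125 CPM in GTML tumors (log2 fold change 0.23, SE 0.14, adjusted p = 0.25). Polr1b, the second-largest subunit, was at 38.3 CPM in GMYC tumor 6 and at 161 to 210 CPM in the other 5 (median of all 6, 177 CPM), beside 122 to 228 CPM in GTML tumors (median 139 CPM). Its log2 fold change was 0.09 (SE 0.27, adjusted p = 0.82). Outside GMYC tumor 6 and GTML tumor 2 the highest GTML value of Polr1b was 164 CPM, just above the lowest GMYC value. Polr1a, the largest subunit, and Polr1e had values of 0.11 and 0.28.

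The PeBoW complex, which Pes1, Bop1 and Wdr12 form and which is needed to mature the large subunit RNAs, gave unlike values for its partners. Bop1 had the largest change of all members, with 131, 160 and 206 CPM in the lowest, median and highest GMYC tumor and 79.9, 87.3 and 149 CPM in GTML tumors. Its log2 fold change was 0.71 (SE 0.16, adjusted p = 0.0088), which is 1.64-fold. Of the 8 GTML tumors, 6 lay below 90 CPM, and the other 2, tumors 4 and 2, were at 131 and 149 CPM. Wdr12 ranged from 50.9 (GMYC tumor 6) through a median of 128 to 160 CPM in GMYC and from 99.5 through 135 to 166 CPM in GTML tumors, and its log2 fold change was −0.16 (SE 0.20, adjusted p = 0.56). Pes1 was in between at 0.24 (SE 0.13, adjusted p = 0.17). The difference between Bop1 and Wdr12 was not tested.

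None of the 8 large subunit assembly factors was called, and their log2 fold changes ran from −0.06 to 0.46 with a median of 0.11. Nop16 had the smallest p, with 45.4, 71.9 and 80.2 CPM in GMYC and 33.4, 46.9 and 80.8 CPM in GTML tumors (log2 fold change 0.46, SE 0.18, adjusted p = 0.083). Its highest GTML tumor was again tumor 2, and the other 7 reached 56.1 CPM. Ddx18, an RNA helicase, had the largest p, with 39.9, 71.2 and 92.1 CPM in GMYC and 45.6, 63.6 and 113 CPM in GTML tumors (log2 fold change 0.04, SE 0.22, adjusted p = 0.90). Mrto4, which helps to place the ribosomal stalk, was at 0.33, Rrs1, which brings in the 5S ribonucleoprotein, at 0.17 and Ppan at 0.16. The RNA methyltransferase gene Nop2, together with Nip7 and Rrp1b, lay within 0.07 of 0 with standard errors of 0.21 to 0.25.

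Of the 11 small subunit processome members, 1 was called. Rrp9, which binds the U3 small nucleolar RNA, was at 63.9, 102 and 122 CPM in the lowest, median and highest GMYC tumor and at 63.2, 69.6 and 93.5 CPM in GTML tumors, with a log2 fold change of 0.48 (SE 0.14, adjusted p = 0.026). GMYC tumor 6 was within the GTML range, and the other 5 GMYC tumors were at 93.0 CPM or more, where GTML tumors other than tumor 2 reached 75.4 CPM. As for Ddx21, setting these tumors aside widens the difference by construction. Utp20, a large scaffold protein, had the largest p: 174, 299 and 366 CPM in GMYC and 240, 278 and 352 CPM in GTML tumors gave −0.02 (SE 0.14, adjusted p = 0.93). Rcl1 was at 0.40, Heatr1 at 0.36, Tbl3 at 0.33, Wdr43 at 0.23, Pwp2 at 0.18, Emg1 (an RNA methyltransferase) at 0.15 and Wdr75 at 0.08. Nat10, an RNA acetyltransferase, and Nop14 were at −0.10 and −0.22. None of these 9 was called, with adjusted p-values from 0.13 to 0.81.

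The 4 factors of late small subunit maturation were not called either. Rrp12, a factor of subunit export, was at 80.0, 168 and 197 CPM in GMYC and at 101, 126 and 155 CPM in GTML tumors (log2 fold change 0.31, SE 0.17, adjusted p = 0.18). Tsr1, a GTPase-like assembly factor, was at 35.1 CPM in GMYC tumor 6 and at 99.3 to 150 CPM in the other 5 (median of all 6, 124 CPM), beside 88.9 to 127 CPM in GTML tumors (median 95.4 CPM; log2 fold change 0.13, SE 0.23, adjusted p = 0.70). Nob1, the endonuclease that makes the last cut of 18S ribosomal RNA, was at −0.22 (SE 0.20, adjusted p = 0.44) and Bysl at 0.13.

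In each group 1 tumor lay apart from the others for most members. GMYC tumor 6 was the lowest of the 6 GMYC tumors for 34 of 43 members (79.1%, beside 23.9% of all genes tested) and the lowest of all 14 tumors for 26. It lay below the median of the other 5 for 41 members. The gap was −0.89 on the log2 scale in the median over members and −0.02 over all genes tested. For 19 members the gap was 1 or more, beside 11.8% of all genes tested. The mean log2 CPM of the members was 6.26 in GMYC tumor 6 and 6.93 to 7.31 in the other GMYC tumors.

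The gap in GMYC tumor 6 was not even across roles. It was −1.28 in the median for the small subunit processome, −1.18 for large subunit assembly, −1.13 for late small subunit factors and −0.88 for RNA polymerase I subunits. It was −0.70 for scaffold proteins, −0.54 for box C/D, −0.47 for box H/ACA and −0.12 for PeBoW genes. Rrs1 (18.4 CPM beside 69.3 to 111 CPM) had the largest gap at −2.30, followed by Polr1b at −2.22, Gnl3 at −2.03 and Rrp1b at −1.98. At the other end Fbl and Bop1 lay 0.22 and 0.14 above the other GMYC tumors. A list of 17 proliferation genes lay 0.35 above the other GMYC tumors in the median. Counts assigned to mouse Myc were low in the same tumor, and the part of Myc in the low values of the members was not tested.

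**Figure D3:**
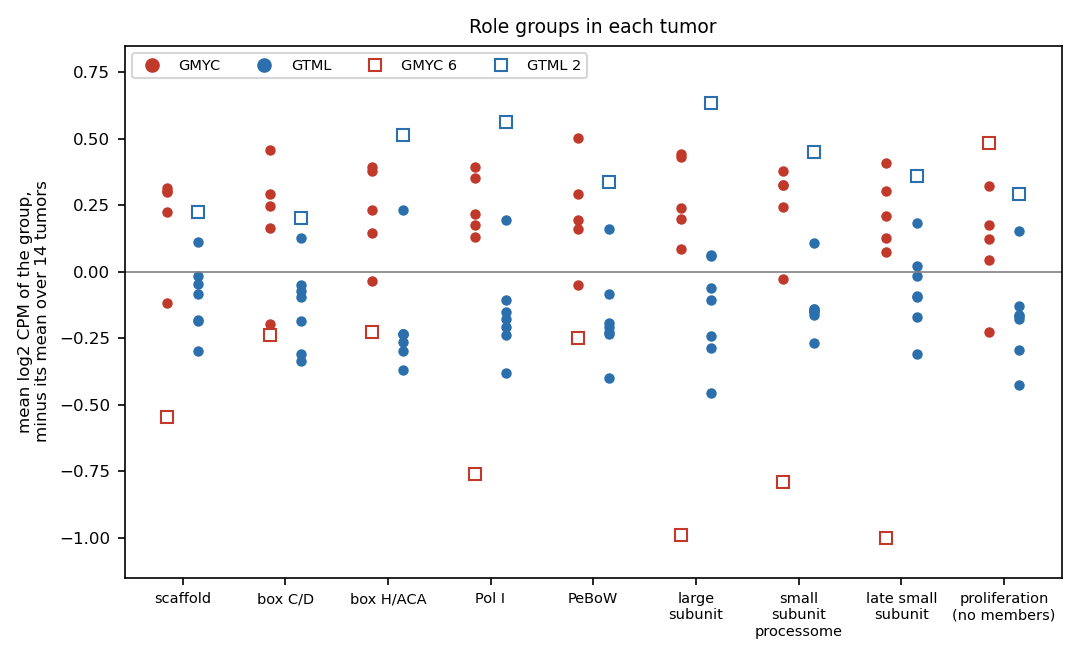
Mean log2 CPM of each role group in each tumor, minus the mean of that group over 14 tumors (y axis), for GMYC (red) and GTML (blue) tumors, with a proliferation list for comparison. GMYC tumor 6 (open red squares) is the lowest GMYC tumor in all 8 role groups and the highest tumor for proliferation, and GTML tumor 2 (open blue squares) is the highest GTML tumor in all 9 columns.

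GTML tumor 2 stood at the other end. It was the highest of the 8 GTML tumors for 37 of 43 members (86.0%, beside 23.1% of all genes tested) and the highest of all 14 tumors for 22. The gap to the median of the other 7 was 0.56 in the median over members and 0.05 over all genes tested. It was largest for large subunit assembly (0.78), RNA polymerase I subunits (0.76) and box H/ACA genes (0.75), and smallest for scaffold proteins (0.36). Mrto4 had the largest gap at 1.12, and Rrp12, Ncl and Nop56 were at −0.04, −0.03 and 0.00. Proliferation genes were also high in this tumor, by 0.62. The mean log2 CPM of the members was 7.37 there and 6.62 to 7.07 in the other GTML tumors.

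**Figure D4:**
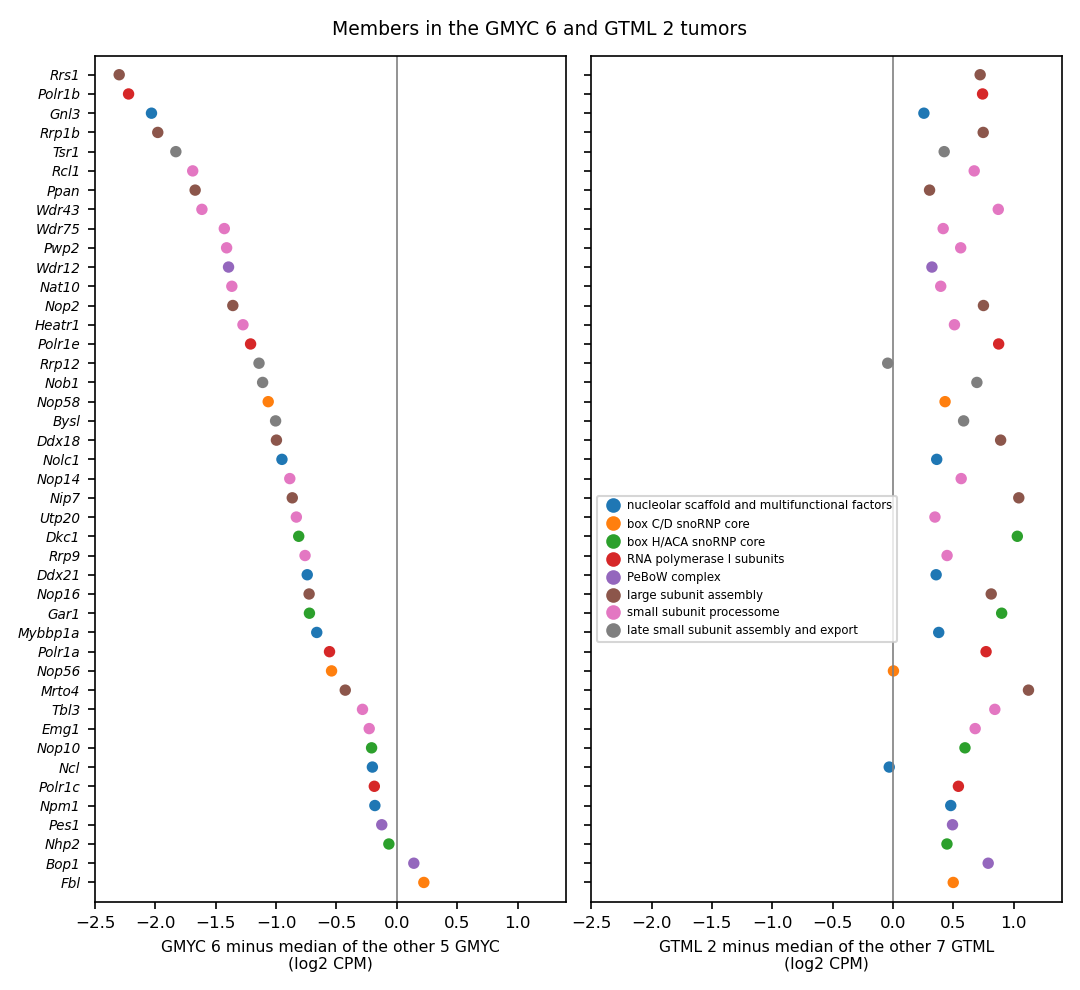
Difference in log2 CPM of each member between GMYC tumor 6 and the median of the other 5 GMYC tumors (left) and between GTML tumor 2 and the median of the other 7 GTML tumors (right), in the order of the left panel and colored by role. The left values run from −2.30 to 0.22 and the right ones from −0.04 to 1.12, and the members farthest to the left are not those farthest to the right.

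Each of these tumors moved the count of calls. Without GMYC tumor 6, 8 members were called higher in GMYC (7.96% of all genes tested were), with a median log2 fold change of 0.27. Heatr1, Nop16, Rcl1 and Rrp12 joined the 4 members named above. Without GTML tumor 2, 10 members were called (15.1% of all genes), with a median of 0.23, and Dkc1, Mrto4, Nhp2, Nop10, Nop16 and Tbl3 joined the 4. Without both tumors, 23 members were called higher (14.5% of all genes) and none lower, and the median was 0.34. These 2 tumors were singled out after their member values had been seen, and leaving out a low GMYC and a high GTML tumor raises the difference by construction, so the larger counts are a description of the other 12 tumors. Among those 12, Heatr1 was at 0.58 (SE 0.08), Rcl1 at 0.67 (SE 0.12) and Bop1 at 0.80 (SE 0.14), while Ncl was at 0.08 (0.04 over all 14 tumors), Wdr12 at 0.04 (−0.16), Nob1 at 0.02 (−0.22) and Nop14 at −0.01 (−0.22). In the opposite direction, without GMYC tumor 3 or without GMYC tumor 5 only 1 member, Bop1, was called, beside 5.65% and 6.43% of genes called higher.

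The other genes of the pathway gave a similar picture. Of 119 further ribosome biogenesis genes listed, 115 were tested and 11 were called higher in GMYC (9.71% of all genes tested were). None was called lower by edgeR, DESeq2 or limma-voom, where edgeR called 2418 of all 21024 genes lower. At an unadjusted p under 0.05 the edgeR test gave 30 higher and 0 lower. Over all genes it was 7938 of 21024 in either direction, a larger share, and not split by direction. The median log2 fold change of the 115 genes was 0.15. Nsa2, a factor of large subunit assembly, had the smallest p: 73.9, 91.2 and 112 CPM in the lowest, median and highest GMYC tumor and 25.6, 43.8 and 69.6 CPM in GTML tumors, with no overlap and a log2 fold change of 0.93 (SE 0.19, adjusted p = 0.0064). Mtrex, a helicase that works with the RNA exosome, was at 191, 231 and 255 CPM in GMYC tumors and at 139, 162 and 199 CPM in GTML tumors, with a log2 fold change of 0.45 (SE 0.10, adjusted p = 0.0098). Snu13, which binds box C/D and U3 RNAs directly and recruits the proteins encoded by Nop56, Nop58 and Rrp9, was at 0.86 (SE 0.21, adjusted p = 0.012), with 54.2, 72.0 and 80.6 CPM in GMYC tumors and 26.9, 33.0 and 71.7 CPM in GTML tumors. Without GMYC tumor 3, GMYC tumor 5 or GTML tumor 5 the count of other pathway genes called was 7, without GMYC tumor 6 it was 21, without GTML tumor 2 it was 34, and without both of the last it was 45. GMYC tumor 6 was not low for Nsa2 (96.2 CPM) or Snu13 (79.0 CPM).

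Regulators of RNA polymerase I were mixed. Rrn3, which links the polymerase to its initiation complex, was called higher in GMYC, at 201, 224 and 235 CPM beside 135, 156 and 206 CPM in GTML tumors (log2 fold change 0.41, SE 0.10, adjusted p = 0.015). Polr1d, a subunit shared with RNA polymerase III, was at 60.1, 68.4 and 74.0 CPM beside 33.6, 43.8 and 69.8 CPM, with a log2 fold change of 0.45 (SE 0.16, adjusted p = 0.056). Ubtf, the factor that binds ribosomal DNA, was at 248, 281 and 336 CPM beside 245, 263 and 296 CPM, with a log2 fold change of 0.12 (SE 0.08, adjusted p = 0.29). The other genes called were Krr1, Imp3, Riok3, Wdr74, Pih1d1, Ruvbl2 and Rsl1d1, with log2 fold changes from 0.36 to 0.67. By role, 3 of 10 snoRNP assembly genes, 3 of 41 small subunit genes, 3 of 41 large subunit genes, 1 of 13 exosome genes and 1 of 10 RNA polymerase I genes were called.

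Promoter windows were searched for the E-box, because it is the motif that both oncoproteins bind. RefSeq windows (GRCm38.p6, 250 bases before to 50 bases after the transcription start) were matched for 37 of the 43 members. The 6 letters CACGTG, which read the same on both strands, were found in 6 of them (16.2%), beside 8.09% of all genes with a window. In the 250 bases before the start alone, 1 member (2.70%) and 6.86% of all genes held it. The windows around the motif are shown on the gene's strand, with the motif in capitals, to place it relative to the start.
Nop2, chr6:125131811-125131840, plus strand, motif from base −60: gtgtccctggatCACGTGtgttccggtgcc
Pes1, chr11:3963965-3963994, plus strand, motif from base 3: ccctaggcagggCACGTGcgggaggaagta
Wdr43, chr17:71616220-71616249, plus strand, motif from base 18: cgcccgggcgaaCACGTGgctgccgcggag
Tsr1, chr11:74898092-74898121, plus strand, motif from base 25: tcacttggtgcaCACGTGgactgcagaatg
Utp20, chr10:88826765-88826789, minus strand, motif from base 38: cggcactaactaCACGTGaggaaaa
Mybbp1a, chr11:72441355-72441376, plus strand, motif from base 41: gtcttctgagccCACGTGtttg
Only the Nop2 motif precedes the start. The log2 fold changes of these 6 genes were 0.06, 0.24, 0.23, 0.13, −0.02 and 0.10 in this order, none was called, and their differences between GMYC tumor 6 and the median of the other GMYC tumors were −1.36, −0.12, −1.61, −1.83, −0.83 and −0.66 on the log2 scale.

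Of the members, 8 also carry small nucleolar RNA genes in their bodies on the same strand (Ncl, Gnl3, Nop56, Nop58, Dkc1, Ppan, Wdr43 and Tsr1), so that the transcript of a snoRNP or processing factor is also the source of guide RNAs. The GRCm38 annotation places 23 small nucleolar RNA genes there. Box C/D RNAs carry the conserved boxes C and D near their ends, and 5 of those within members are shown with the first TGATGA (the core of box C) and the last CTGA (box D) in capitals.
Snord82 in Ncl, chr1:86356261-86356330, minus strand: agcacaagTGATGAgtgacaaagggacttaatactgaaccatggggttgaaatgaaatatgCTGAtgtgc
Snord69 in Gnl3, chr14:31014287-31014366, minus strand: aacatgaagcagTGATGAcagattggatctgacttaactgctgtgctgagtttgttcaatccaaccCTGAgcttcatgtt
Snord110 in Nop56, chr2:130275506-130275573, plus strand: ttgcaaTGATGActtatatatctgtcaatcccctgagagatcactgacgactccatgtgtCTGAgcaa
Snord11 in Nop58, chr1:59704790-59704873, plus strand: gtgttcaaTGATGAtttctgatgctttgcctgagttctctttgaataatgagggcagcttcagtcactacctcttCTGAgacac
Snord92 in Wdr43, chr17:71631281-71631365, plus strand: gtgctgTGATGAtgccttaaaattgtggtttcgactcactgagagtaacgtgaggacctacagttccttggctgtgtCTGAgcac
Of the 23, 22 were in the count table and 18 were tested, and none was called, although 15 had a log2 fold change above 0. Their counts followed the small nucleolar RNA split: summed over the 22, they were at least 2051 in the 6 tumors with the higher share and at most 974 in the other 8. Snord92 had a median of 112 counts in GMYC and 13 counts in GTML tumors, with ranges of 12 to 126 and 9 to 113 counts (log2 fold change 0.90, SE 0.69, adjusted p = 0.35). Snord82 did not follow the split and had 147 to 188 counts in GMYC and 145 to 214 counts in GTML tumors (−0.30, SE 0.13, adjusted p = 0.11). As 4 of 6 GMYC and 2 of 8 GTML tumors lie on the higher side, the difference between models and that between sides cannot be told apart for these short RNAs in the pooled values.

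Counts of some members can be shared with near-identical copies or with overlapping genes. Processed pseudogenes are copies of a spliced transcript elsewhere in the genome, and 18 that match a member over at least 300 bases with at least 90% identity were tested, for 11 members. Of these, 8 were called higher in GMYC and none lower, and 16 had a larger log2 fold change than their member. Processed pseudogenes as a class did much the same: of 2087 tested, 31.1% were called higher in GMYC, and their median log2 fold change was 0.61 beside 0.75 for the 18. The 6 pseudogenes of Npm1 together were at 135 to 184 CPM in GMYC tumors (median 172) and at 69.0 to 167 CPM in GTML tumors (median 99.9), with log2 fold changes from 0.35 to 0.92 where Npm1 itself was at 0.20. They held a median of 35.5% of the counts of Npm1 and its copies in GMYC and 28.9% in GTML tumors. For Fbl the 2 copies were at 1.17 and 1.28 (Fbl 0.52), for Dkc1 at 0.81 (Dkc1 0.32) and for Mrto4 at 1.37 (Mrto4 0.33). With these counts added to the members, Npm1 was at 0.34 (SE 0.13, adjusted p = 0.070) and Fbl at 0.59 (SE 0.15, adjusted p = 0.015), and the same 4 members were called.

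**Figure D5:**
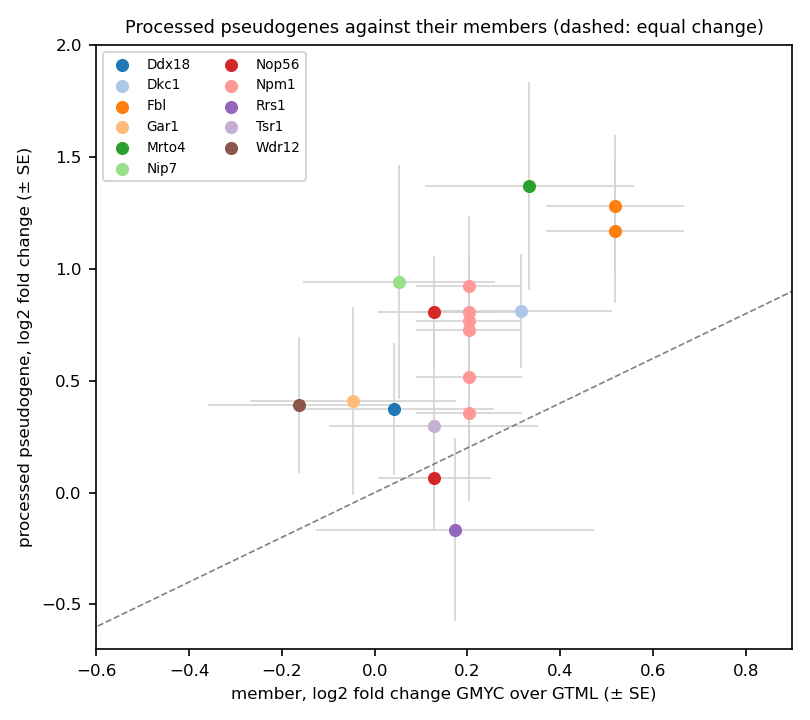
Log2 fold change of 18 processed pseudogenes (y axis, ± SE) against that of the member they copy (x axis, ± SE), colored by member, with a dashed line where both are equal. Of the 18 points, 16 lie above the line, among them all 6 copies of Npm1.

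Exons of 15 members overlap an exon of a protein-coding gene on the opposite strand, and whether counting used strand is not given in the sources used here. The overlap is 37.3% of the exon bases of Tbl3 (with Noxo1) and 32.3% of those of Tsr1 (with Srr), and 9.37% or less for the other 13. Of the called members, Bop1 shares 1.69% with Mroh1 and Rrp9 0.682% with Parp3, and Ddx21 and Fbl share none.

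Markers of other cells differed between the models and in the tumors that stood apart. Red blood cell genes were called higher in GMYC for 4 of 5, with a summed level of 53.4 to 177 CPM in GMYC and 41.6 to 134 CPM in GTML tumors. Photoreceptor genes were called lower for 7 of 9, at 484 to 703 CPM beside 189 to 1735 CPM. Of 7 medulloblastoma identity genes (6 tested), 1 was called higher and 2 lower, at 630 to 758 CPM beside 546 to 777 CPM. Astrocyte (7 tested) and microglia genes (9 tested) had no calls, at 803 to 1376 beside 540 to 965 CPM and at 214 to 365 beside 109 to 498 CPM. For oligodendrocyte genes 2 of 7 were called higher and 1 lower (112 to 316 beside 114 to 309 CPM), for cerebellar neuron genes 2 of 7 higher (390 to 546 beside 297 to 515 CPM) and for endothelial genes 1 of 6 lower (63.1 to 174 beside 121 to 268 CPM). No marker was at 0 in all tumors, and Eomes and Gabra6 did not pass the filter. GMYC tumor 6 had the highest red blood cell sum of its group (177 CPM) and its lowest endothelial (63.1 CPM) and microglia sums (214 CPM), and GTML tumor 2 had the lowest photoreceptor (189 CPM) and cerebellar neuron sums (297 CPM) of its group. The part of these cells in the values of the members was not tested, and in such bulk samples fewer cells of a type and less RNA per cell cannot be told apart.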

How the data were processed

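Fresh-frozen tumor biopsies (6 GMYC, 8 GTML) had been sequenced on Ion Torrent instruments. According to the paper's methods the authors aligned reads to mouse mm9 with STAR and then Bowtie and counted them per gene with featureCounts. The submitters' processing notes name STAR 2.4.0, Bowtie2 2.2 and Subread 1.5.2; the paper's methods give later versions of the aligners. The deposited values are whole-number counts for 37310 genes, without normalization. The handling of strand and of duplicate reads is not given in the sources used here. mt-Co1, with 1545 exon bases, had 1428 to 1587 counts in all 14 tumors, so differences of the most densely counted genes may be understated; the densest member, Npm1, reached 0.826 counts per exon base. Another table had 18 count columns with names found in no label, and these were left out; cell line samples were not analysed here.

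Symbols, exon lengths, overlaps and small nucleolar RNA positions came from GENCODE M21 (GRCm38), matched by Ensembl identifier (32620 genes). Promoter sequences are from RefSeq. A gene was kept where 3 or more tumors exceeded 1 CPM, and GMYC and GTML tumors were compared with edgeR 4.0.16 (R 4.3.3; TMM, quasi-likelihood test, Benjamini-Hochberg adjustment over 21024 genes, threshold 0.05), whose code was tested on simulated counts. The study's methods used limma-voom, run here as an alternative (limma 3.58.1), as was DESeq2 1.42.0, which gave no adjusted p for 74 genes. The study's comparison used 7 GTML tumors, those it classed as Group 3; the labels do not name the tumor left out, and all 8 were used here. Mean log2 CPM used a prior count of 2. Pseudogenes were matched with blastn. As a check for libraries deposited more than once, counts were compared within groups; no pair agreed within sampling noise (chi-square per degree of freedom at least 6.23). Depth (4602294 to 7279811 counts) sets the precision of the counts.

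The members and lists were chosen with earlier results of these data known, so no test over a list was made. Every member could be named; values over tumors are given for the smallest and the largest p of each role and for Ncl, Npm1 and Fbl, and for the 3 other pathway genes of smallest p in each direction among those called with Ubtf, Rrn3 and Polr1d. Members shown for GMYC tumor 6, GTML tumor 2, pseudogenes or overlaps, and the further pathway genes called, were added after their values were seen.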

Additional observations from a re-analysis of the deposited data

Results flagged for a closer look

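For each member, the lowest and the highest tumor of each group were compared with their nearest neighbour by Dixon's criterion, the gap as a share of the group's range. Of 86 groups of values, 15 were past its 95% critical value, which for a single group is passed by chance about 1 time in 20. The members were measured in the same tumors, so the 86 groups are not independent and the 15 do not measure a departure from chance. All 15 concerned GMYC tumor 6 at the low end (4) or GTML tumor 2 at the high end (11).

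In GMYC tumor 6, Polr1b was at 38.3 CPM and its nearest neighbour at 161 CPM. Ppan was at 39.0 CPM (nearest 109), Rrp1b at 56.6 CPM (nearest 205) and Nat10 at 79.6 CPM (nearest 188).

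In GTML tumor 2, Heatr1 was at 323 CPM and its nearest neighbour at 238 CPM, and Polr1a was at 377 CPM (nearest 270). Wdr43 was at 326 CPM (nearest 224), Dkc1 at 296 CPM (nearest 197), Nat10 at 253 CPM (nearest 198) and Polr1b and Nop2 both at 228 CPM (nearest 164 and 163). Ddx18 was at 113 CPM (nearest 73.5), Emg1 at 109 CPM (nearest 81.5), Rrp9 at 93.5 CPM (nearest 75.4) and Rcl1 at 80.2 CPM (nearest 57.8). Nat10 and Polr1b were past the criterion in both tumors, low in GMYC tumor 6 and high in GTML tumor 2.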

How the results depend on the processing

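Under 30 alternatives the count of members called higher in GMYC (4) was 3 to 6 in those not named here, and no alternative called a member lower. The count was 10 with limma-voom on 7 GTML tumors (GTML 2 left out), where 3359 of 20936 genes were called higher. The labels do not name GTML 2 as the tumor that the study left out. The count of members was 1 with the small nucleolar RNA share as a term and 1 with a Y-linked covariate. It was 0 among tumors with a higher and 2 among those with a lower small nucleolar RNA share. With GMYC 6 and GTML 2 both left out it was 23. That fit, like adding pseudogene counts to the members (4), was chosen after seeing the data. Leaving out 1 tumor at a time gave 1 (without GMYC tumor 3 or 5) to 10 (without GTML tumor 2). The replicate block gave 0 members, 0 other pathway genes and 251 genes in all; same-numbered tumors had correlations of −0.21 to 0.24 in their deviations, and 1 of 6 GMYC tumors correlated best with its own number, so the numbers do not pair the tumors. Of all genes, 4459 were called, 2851 with the share as a term, 1709 with the Y-linked covariate, 2 and 2662 on the higher and lower sides of the share, 2617 to 6430 with 1 tumor left out, and 676 past the thresholds of the study (adjusted p under 0.01 and log2 fold change beyond 1), with no member among them. Other pathway genes called (11) came to 21 with DESeq2, 28 with TMM on genes of low count density, 30 with limma-voom on 7 GTML tumors, 20 among protein-coding genes, 3 with the Y-linked covariate, 0 and 5 on the higher and lower sides, and 7 to 34 with 1 tumor left out. Over all genes, those called higher (2041) came to 2547, 2960, 3359 and 1360 (of 15441) in the first 4 of these fits. They came to 566 with the Y-linked covariate, 2 and 1334 on the higher and lower sides, and 1184 to 3166 with 1 tumor left out. The median of the members was above 0 in 29 of 30 alternatives, and −0.01 on the higher side. Bop1 was called in 28 of 30 alternatives, Fbl in 24, Ddx21 in 23 and Rrp9 in 22, each with a log2 fold change above 0 throughout. Of the 43 members, 29 changed sign in at least 1 alternative, uncalled in both fits. The causes of these changes were not tested. The members' standard errors, 0.098 to 0.30 on the log2 scale, limit which differences could be called.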
